A study of Mus musculus with 2 samples.

Results

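The Ly6 and Psca surface protein family comprised 10 genes, Ly6a, Ly6c1, Ly6d, Ly6e, Ly6h, Ly6k, Ly6g6c, Psca, Lypd3 and Slurp1, in RNA of fetal mouse ureters. They were found by their names in the array design, on 12 of 39429 probes, among 29923 genes in all. The genes were chosen with their ratios in this contrast known, so those ratios are described here and carry no test. Total RNA of dissected ureters of E18.5 embryos, NMRI strain, was compared on 2 arrays with 2 colors each, 1 holding female and 1 holding male pools. The Pparg-cKO pools had the genotype Pax2-cre/+; Pparg(fl/fl), and the control pools Pparg(fl/?), that is, a floxed Pparg allele with the other allele unstated in the labels. By the study's methods controls were littermates without cre, and the matings leave the other allele floxed or wild type. Pparg encodes a nuclear receptor, and cre removes its exons 2 and 3. Besides the urothelium, this cre line is active in the nephric duct and in renal collecting ducts. Each pool joined the ureters of several embryos of 1 sex, so that female and male pools came from different embryos, and also held muscle and connective tissue, which lie outside that domain. Both arrays lay on the same slide, and sex, dye orientation and array changed together and cannot be told apart.

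Proteins of this family carry a short domain held in shape by disulfide bonds, the fold named after the Ly6 antigens and the urokinase receptor uPAR. Most are tied to the outer cell membrane by a glycosylphosphatidylinositol (GPI) anchor, some carry several such domains, and Slurp1 lacks the anchor and is secreted. Ly6d and Psca are used as surface markers of epithelial cells, Psca having been found as prostate stem cell antigen. Ly6a, also called Sca-1, Ly6c1 and Ly6e are better known from blood, endothelial and stem cells. The ureter is lined by the urothelium, whose layers are made of B (basal), I (intermediate) and S (superficial) cells.

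The probes for Psca and Ly6k held the codons of a motif from the signature end of the fold. The probes of Slurp1 and Ly6d did not hold the whole motif, and parts of it were not searched for. They are shown because these 4 genes had the largest ratios of the 10 members. A stretch of each 60-base probe is printed 5′ to 3′ in the sense of the transcript. Capitals mark the codons of the motif Cys-Cys-x-x-Asp-x-Cys-Asn in Psca, Ly6k and, for comparison, Ly6g and Ly6g5c, and the letters AATAAA in Slurp1. The stretch of Ly6d holds neither motif.
Psca: acgTGCTGCTACTCTGACCTGTGCAATgtc
Ly6k: aagTGCTGTCAATGGGACTCATGTAATggt
Ly6g: tacTGTTGCAAGGAAGACCTCTGCAATgca
Ly6g5c: cagTGTTGCTTCCTGGATTTCTGCAACaat
Slurp1: gtccaccaagcttgtggaaAATAAAATAAA
Ly6d: caggacaggaagatgtggcttgtgtcccag

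The codon motif was found in 5 of 39429 probes, a share of 0.0127%, in the sense of the probe and in 0 probes on the other strand. The 5 were those of Psca, Ly6k, Ly6g and Ly6g5c and 1 probe for an unnamed transcript that also lies in the Ly6 gene cluster. The probe of that transcript shared 28 identical bases with the Ly6g probe. No run longer than 12 bases was shared between the probe of a member and that of any other gene of the family or of the cluster, over 66 probes compared. The letters AATAAA, the usual polyadenylation signal, stood in 12.6% of all probes on the sense strand and in 1590 probes on the other strand. They occurred 2 times, overlapping, in the Slurp1 probe, and 1 time each in the Ly6g6c probe and in 1 of 2 Ly6h probes.

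All 12 probes were well above background in both pools on both arrays. Outlier flags took 2.87% of the female and 3.24% of the male spots, and 0 spots were saturated. The deposited value table, whose columns are titled Pparg-cKO against control, ran against the dye labels on both arrays. Over probes with a signal of at least 100, its correlation with the red over green log2 ratio was 0.997 in females, where the labels put control RNA in red, and -0.998 in males, where they put Pparg-cKO RNA in red. Directions here are those of the deposited table, which are likely from its column titles and from the gene changes that the study describes, in its arrays and, as a separate assay, in tissue sections. Should the dye labels hold instead, higher and lower and the names of the pools are exchanged throughout, and sizes, counts and p-values stay. The targeted gene Pparg gave 12357 signal units in the Pparg-cKO pool and 6113 in the control pool of females, and 12930 and 6688 in males, a mean log2 ratio of 0.97 ± 0.02 (SD, n = 2 arrays). Its probe was not placed relative to the deleted exons and its ratio alone is no check of the labels.

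Ly6d was the member with the largest ratio, and it was lower in Pparg-cKO ureters. Ly6d encodes a GPI-anchored surface protein of stratified epithelia and of early B lymphocytes. Its processed signal was 1227 in the female Pparg-cKO pool and 9664 in the female control pool. In the male pools it was 874 and 7495. Both Pparg-cKO pools were thus far below both control pools, and the arrays differed little. The log2 ratio of Pparg-cKO over control was -3.04 in females and -2.97 in males, averaging -3.01 ± 0.04 (SD, n = 2), or 8.03-fold lower. Its only probe lies on chromosome 15, chr15:74592551-74592610 on the minus strand (mm9). In these bulk samples, fewer cells that express a gene and less RNA per cell cannot be told apart.

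Psca and Ly6k were also lower in Pparg-cKO ureters on both arrays, by less. Psca, a GPI-anchored antigen of urothelial and prostate epithelium, gave 1952 in the Pparg-cKO pool and 4273 in the control pool of the female array. In males it gave 2253 and 3526. The groups did not overlap, although the male pools lay closer together than the female pools. The log2 ratio was -1.17 in females and -0.62 in males, with a mean of -0.89 ± 0.39 (SD, n = 2), or 1.85-fold lower. Ly6k, a GPI-anchored protein best known from testis and sperm, gave 139 and 435 in the female pools, the Pparg-cKO value first. In the male pools it gave 135 and 248. The Pparg-cKO pools were nearly equal, and the control pools differed more between the arrays than the Pparg-cKO pools did. Its log2 ratio was -1.54 in females and -0.80 in males, a mean of -1.17 ± 0.53 (SD, n = 2), or 2.25-fold lower, with the largest SD of the 10 members. The probes lie at chr15:74546879-74546938 on the plus strand for Psca and chr15:74627529-74627588 on the minus strand for Ly6k (mm9).

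Slurp1 had the opposite direction. It encodes a secreted protein of squamous epithelia that acts on nicotinic acetylcholine receptors. Its signal was 113 in the female Pparg-cKO pool against 19.9 in the female control pool, and 119 against 23.2 in the male pools. The probe was dim in the control pools, though well above background there. The log2 ratio was 1.76 in females and 1.79 in males, with a mean of 1.77 ± 0.02 (SD, n = 2), or 3.41-fold higher. This size depended on how low signals were treated, since the offset of 50 that steadies dim spots also shrinks their ratios. The log2 ratio was 2.43 with scanner-processed signals and 2.17 without the offset. The probe lies at chr15:74557085-74557144 on the minus strand (mm9).

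**Figure D1:**
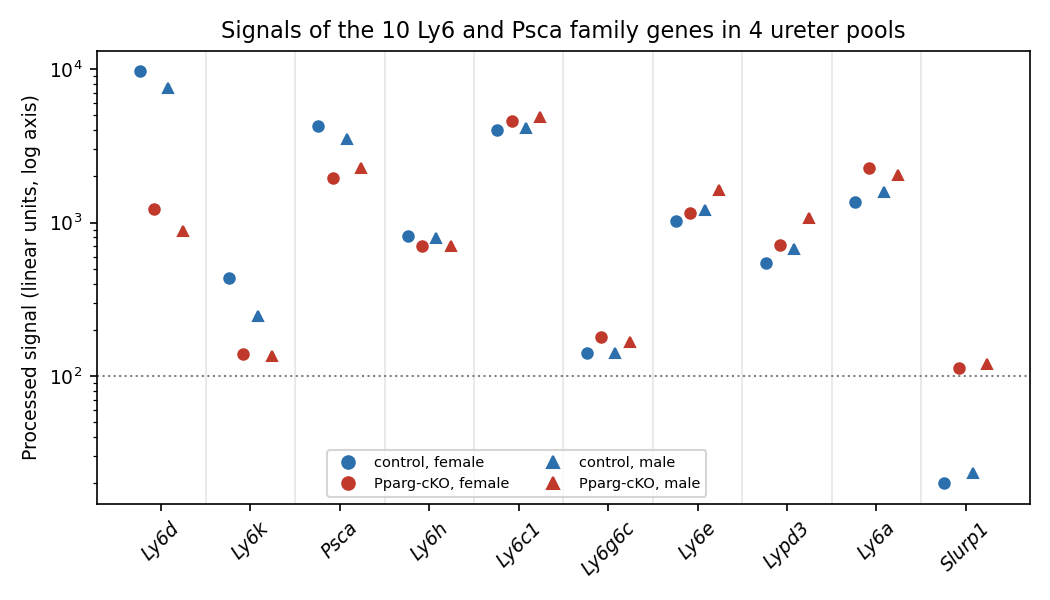
Processed signal of the brightest probe of each member (linear units on a log axis) in the 4 pools, genes ordered by mean log2 ratio. Circles are female and triangles male pools, blue is control and red Pparg-cKO in the direction of the deposited table, and the dotted line is the signal of 100 that the fold rule asks for. For Ly6d the control pools read 9664 and 7495 and the Pparg-cKO pools 1227 and 874; levels of different probes cannot be set against each other.

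The remaining 6 members differed less between the pools. Ly6a, a marker of stem, endothelial and stromal cells, gave 2280 in the Pparg-cKO pool and 1355 in the control pool in females, and 2046 and 1574 in males. Both Pparg-cKO pools were above both control pools. The log2 ratio was 0.71 in females and 0.45 in males, a mean of 0.58 ± 0.19 (SD, n = 2), or 1.49-fold higher. Lypd3, also called C4.4A, is a GPI-anchored protein of suprabasal squamous epithelium and a structural relative of uPAR. It gave 712 and 545 in the female pools and 1065 and 674 in the male pools, the Pparg-cKO value first. Its log2 ratio was 0.33 in females and 0.70 in males, with a mean of 0.52 ± 0.26 (SD, n = 2), so that Ly6a was the more different gene in females and Lypd3 in males.

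Ly6e, a GPI-anchored protein induced by interferon that serves as a receptor for the syncytin of the mouse placenta, gave 1160 and 1019 in the female and 1631 and 1203 in the male pools. Its mean log2 ratio was 0.34 ± 0.22 (SD, n = 2), and the female Pparg-cKO pool lay below the male control pool. Ly6g6c, from the major histocompatibility complex region of chromosome 17, gave 180 and 140 in females and 166 and 142 in males, a mean log2 ratio of 0.32 ± 0.10. Ly6h, known from brain, gave 702 and 816 in females and 707 and 792 in males, a mean log2 ratio of -0.18 ± 0.11. Its second probe gave nearly the same ratio, -0.17 ± 0.05.

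Ly6c1, a marker of endothelial cells and monocytes, was the member whose probes differed from each other. The brighter probe gave 4572 and 4035 in the female pools and 4846 and 4104 in the male pools, a mean log2 ratio of 0.22 ± 0.08 (SD, n = 2). The second probe gave 1787 and 1853 in females and 1789 and 1793 in males, a log2 ratio of -0.01 on each array. The near-identical gene Ly6c2 had no probe under its own name, and whether either Ly6c1 probe also reports it was not tested.

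Across the family, 6 genes were higher and 4 lower in Pparg-cKO on both arrays, and 0 changed sign between them. Over all genes tested, 26.6% were higher and 26.2% lower on both arrays. The median of the 10 log2 ratios was 0.27, with 0.17 in females and 0.26 in males, beside 0.01 over all 22499 genes tested. The members at either end were far apart, from -3.01 for Ly6d to 1.77 for Slurp1, and the median describes neither. The fold rule of the study asks for at least 1.5-fold on each array and an intensity of at least 100. It was read here as the same direction on each array and a signal of at least 100 in the brighter pool. The study does not name the pool, so counts need not be its own. Slurp1 met this signal through its Pparg-cKO pools alone. By the rule as read, 3 members were lower (Ly6d, Ly6k and Psca) and 1 was higher (Slurp1). Of all bright genes 1.84% passed, 1.05% lower and 0.792% higher. The balance over all genes, 147 lower and 111 higher, turned to 102 and 115 with median centering and to 288 and 965 on the male array alone. Because the members were chosen on this contrast, nothing is read from the count beside these shares.

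The members nearest the threshold were close to each other. On its weaker array Psca stood just inside at 1.53-fold, and Ly6a just outside at 1.36-fold, followed by Lypd3 at 1.26-fold. With median centering in place of loess, Ly6a passed and Ly6k and Psca did not. At a threshold of 2-fold only Ly6d and Slurp1 passed, and at a signal threshold of 200 Slurp1, the only higher member, did not pass. With the male array alone Lypd3 was added, and with the female array alone Ly6a was added, so that each gave 5 members.

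**Figure D2:**
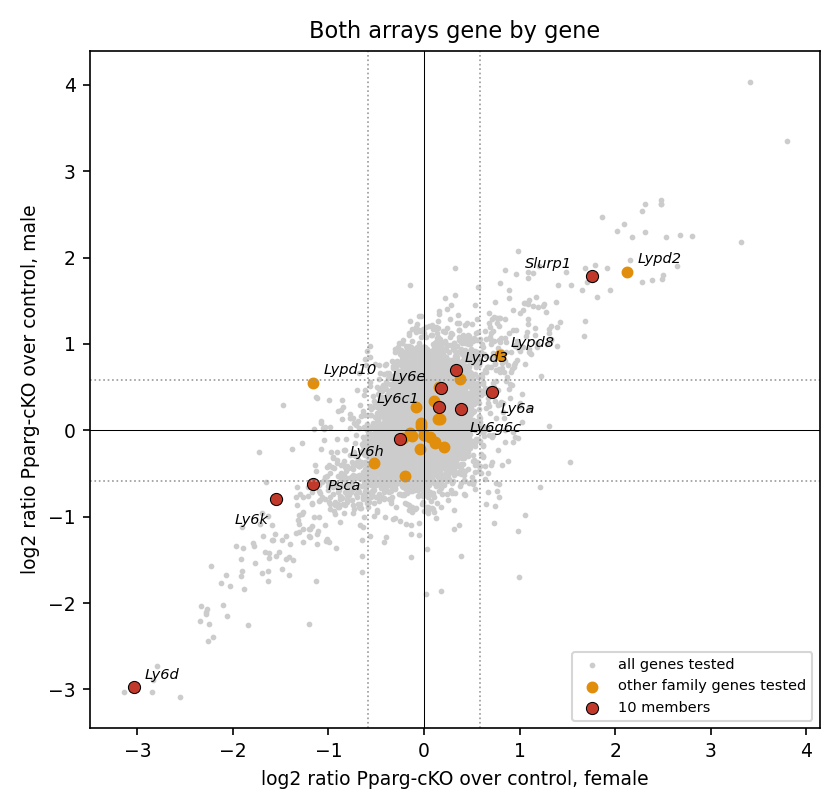
Log2 ratio of Pparg-cKO over control in females (horizontal) and males (vertical) for the 22499 genes tested (gray), the other family genes tested (orange) and the 10 members (red). Dotted lines mark 1.5-fold. Ly6d lies near the lower left end at -3.04 and -2.97, Slurp1 at 1.76 and 1.79, and the 6 members short of the fold rule lie in the central cloud or at its edge.

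Of the 10 members, 8 sit in 1 gene cluster, and the 4 members with the largest ratios lie close together at one end of it. These 8 span 849 kb, from 74546879 to 75395727 on chromosome 15 (mm9). From the Psca probe, that of Slurp1 lies 10.2 kb away, Ly6d 45.7 kb and Ly6k 80.7 kb. Ly6e, Ly6a and Ly6c1 follow between 243 and 329 kb, and Ly6h at 848 kb. Direction was not shared along this end: Psca was lower, Slurp1 higher, Ly6d lower and Ly6k lower. Lypd2, another gene of the family, is the neighbor of Slurp1 at 15.8 kb and was higher, while Slurp2 at 26.4 kb and Lynx1 at 31.6 kb, both between Lypd2 and Ly6d, had mean log2 ratios of 0.01 and 0.09.

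The interval also held 10 other listed genes of the family and 16 genes or unnamed transcripts not listed in it. Among the 16 was the unnamed transcript whose probe held the codon motif. Of these 16, 10 were tested and 0 passed the limma test at an adjusted p under 0.05, with mean log2 ratios from -0.26 to 0.37. Only 5 of the 16 were bright enough for the fold rule, and 0 of these passed.

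**Figure D3:**
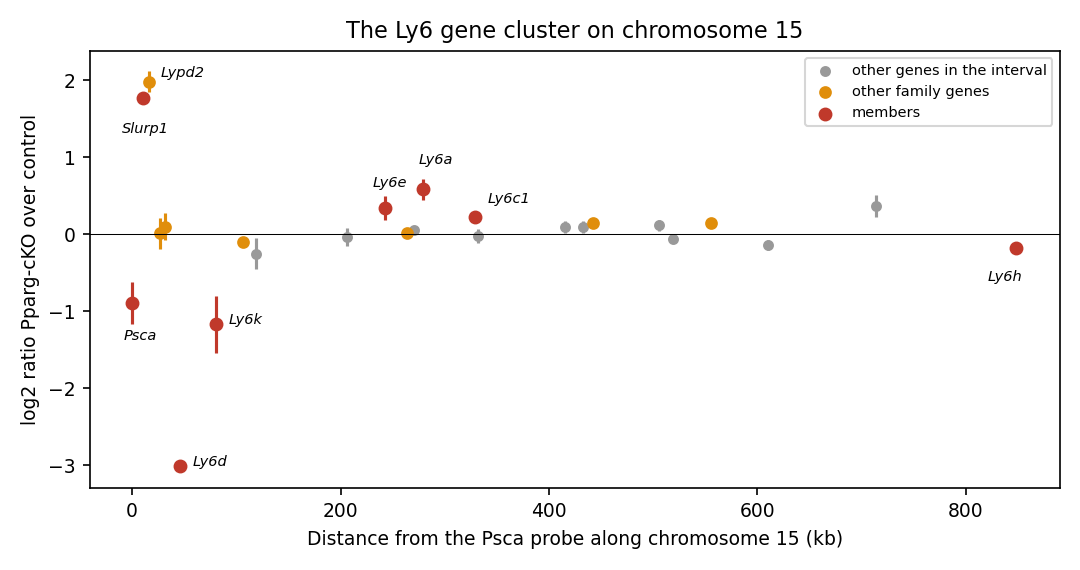
Mean log2 ratio of Pparg-cKO over control against the distance of each probe from the Psca probe along chromosome 15 in kb (mm9), for members and for other genes tested. Vertical bars join the values of the female and the male array. Psca, Slurp1, Lypd2, Ly6d and Ly6k lie within 80.7 kb, with ratios from -3.01 to 1.98, and genes farther along lie between -0.26 and 0.58.

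Of 36 other genes of the family that were listed, 32 had a probe, 7 of them under an older name, and 8 were not well above background in either pool on any array. The limma test was made on 23 of them. It called 1, Lypd2, beside 0.751% of all 22499 genes tested. Lypd2 encodes a GPI-anchored family protein of epithelia. It gave 3460 in the female Pparg-cKO pool against 776 in the control pool, and 3308 against 962 in the male pools. Both Pparg-cKO pools lay above both control pools, and the mean log2 ratio was 1.98 ± 0.20 (SD, n = 2), or 3.95-fold higher. Its adjusted p in limma was 0.00858, and it ranged from 1.7e-05 to 0.533 over 6 alternatives, of which 5 called it and the deposited table did not.

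The median log2 ratio of the 23 genes was -0.01, and 21 of them lay within 0.5 of 0. The exceptions were Lypd2 and Lypd8, a protein of the gut surface. Just inside by their means were Lypd6b, at 0.38 in females and 0.60 in males, and Lypd6, at -0.52 and -0.38. Lypd10 lay inside only as the mean of opposite signs, -1.16 and 0.55. Lypd8, chosen here after its values were seen, was dim, at 64.9 and 27.4 in females and 69.7 and 31.7 in males. Its mean log2 ratio was 0.83 ± 0.06 (SD, n = 2). The adjusted p in limma was 0.0580, short of the threshold, and 3 of 6 alternatives called it. Plaur, which encodes uPAR itself, had a mean log2 ratio of -0.01.

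**Figure D4:**
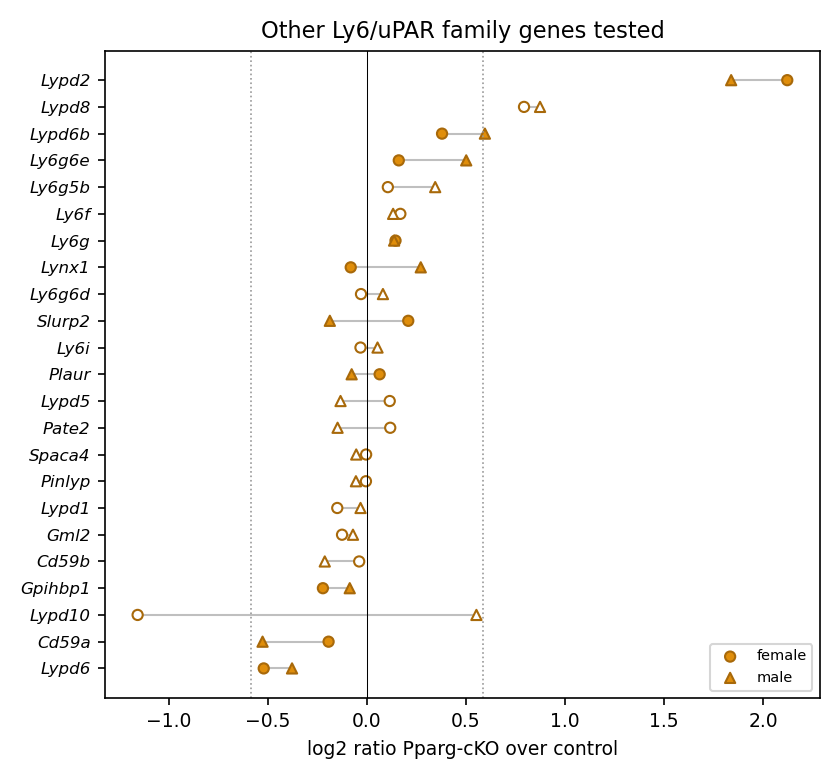
Log2 ratio of Pparg-cKO over control for the 23 other family genes tested, circles for the female and triangles for the male array. Filled symbols are genes with a signal of at least 100 on both arrays, open symbols dimmer ones, and dotted lines mark 1.5-fold. Lypd2 stands apart at 2.12 and 1.84, Lypd8 lies past 1.5-fold on both arrays, and Lypd10 lies on opposite sides of 0.

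The genes that make and use these proteins, and the cell type markers further below, were taken as lists. These lists were chosen with earlier results of these data known, so their p-values describe and are no independent support. GPI-anchored proteins need the enzymes of anchor synthesis and transfer in the endoplasmic reticulum. All 28 such genes measured were tested, 0 passed in limma, and their median log2 ratio was 0.00. The genes of that list with the largest ratios were Pgap1 at -0.61, Pigs at 0.47 and Pgap3 at 0.35. Of 25 other GPI-anchored surface proteins 0 passed, with a median of 0.09 and the largest ratio at Cpm, 0.70. Without adjustment for the number of genes, 1914 genes had a p under 0.05 in limma, against 169 after it.

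Partners of single members were examined in the same way. Slurp1, like Lynx1 and Ly6h, binds nicotinic acetylcholine receptors. Of 16 subunit genes, 10 were tested and 0 passed in limma, and 0 reached a signal of 100. The largest ratio was that of Chrnb1, at 0.55. Of 8 genes of the plasminogen activator system and the extracellular partners of Lypd3, 7 were tested and 1 passed. This was Agr2, a secreted protein disulfide isomerase known to bind Lypd3. It gave 1561 and 341 in the female pools and 1514 and 404 in the male pools, the Pparg-cKO value first. Its log2 ratio was 1.97 ± 0.19 (SD, n = 2), with an adjusted p of 0.00833 in limma. It was also called in 5 of 6 alternatives. Agr3, of the same list, went the other way, at -0.57 in females and -0.48 in males. It was dim, at 4.96 and 16.4 in the female and 6.01 and 14.1 in the male pools, and did not pass. The median of the whole list was -0.21.

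S cell markers had the direction of Ly6d, Psca and Ly6k. All 6 were lower in Pparg-cKO on both arrays, with a median log2 ratio of -1.26, and 2 passed in limma. These were Krt20, at -3.09, with an adjusted p of 0.00620 in limma, and Upk3b, at -1.67, with 0.00884. Upk1a at -1.51 and Upk1b at -1.02, both uroplakins of the S cell surface, passed the fold rule but not the limma test. Of 6 alternatives, 5 called Krt20 and Upk3b, 3 called Upk1a and 2 called Upk1b. The summed signal of the list was 45366 and 49855 in the Pparg-cKO pools and 78083 and 67979 in the control pools. All 6 were well above background in every pool. Upk3a, another uroplakin, had a mean log2 ratio of -0.24. The part of the S cell markers in the ratios of Ly6d, Psca and Ly6k was not tested.

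B cell and squamous markers differed in the other direction or in both. Of 5 B cell markers, Krt14 and Krt15 passed, at log2 ratios of 1.00 and 1.18. Krt17, which was dim, had 0.84, and Trp63 had -0.48. Krt5 had a mean of -0.25, from -0.86 in females and 0.35 in males. The list's summed signal was 5463 and 7321 in the Pparg-cKO pools and 5129 and 5159 in the control pools. Of 10 squamous markers tested, 3 were called higher in limma, Krt4 at 2.53, Krt6a at 2.31 and Krt6b at 2.16. Krt6b was dim, with control signals of 9.59 and 18.8, and its log2 ratio ranged from 1.27 to 3.27 over the alternatives, the lowest being the median over both of its probes, of which the second gave 0.37. Ivl, which encodes the envelope protein involucrin, was called lower at -1.77. Of 6 alternatives, 3 called Krt14 and 5 called each of Krt15, Krt4, Krt6a, Krt6b and Ivl. The summed signal of the squamous list was 25299 and 25282 in the Pparg-cKO pools and 28762 and 27649 in the control pools, mostly that of Sprr1a. Sprr1b was not well above background in any pool. The part of these markers in the ratios of Slurp1 and Lypd3 was not tested.

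Markers of other cells of the ureter stand beside the ratios of Ly6a, Ly6c1 and Ly6e. For endothelial cells, 0 of 8 markers passed in limma and the median log2 ratio was 0.05, with summed signals of 9744 and 10198 in the Pparg-cKO and 9422 and 9617 in the control pools. For immune cells, 0 of 8 passed and the median was also 0.05, with sums of 12008 and 10929 against 10489 and 11282. Smooth muscle markers had a median of -0.15 and neuronal and glial markers one of -0.24, and 0 of 5 and 0 of 8 passed. Interferon response genes were higher on both arrays for 9 of 10, with a median of 0.28 in females and 0.89 in males. Of these, Ifit1 at 1.19 and Oas1a at 0.95 passed in limma, in 4 and 2 of 6 alternatives. Ifi44, at 0.80, passed the fold rule but not the limma test, which called it in 1 alternative. The list's sum was 1720 and 2993 in the Pparg-cKO against 1243 and 1502 in the control pools. Ly6e had 0.18 in females and 0.49 in males, Ly6c1 0.16 and 0.27, and Ly6a 0.71 and 0.45. The part of the interferon genes in these ratios was not tested. General epithelial markers had a median of 0.28, with -0.11 in females and 0.50 in males. In limma 0 of 6 passed, and Krt19, at 1.00, passed the fold rule. Krt18, at -0.79, was lower on both arrays and Krt7 had -0.16, so that the list was not of 1 direction.

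**Figure D5:**
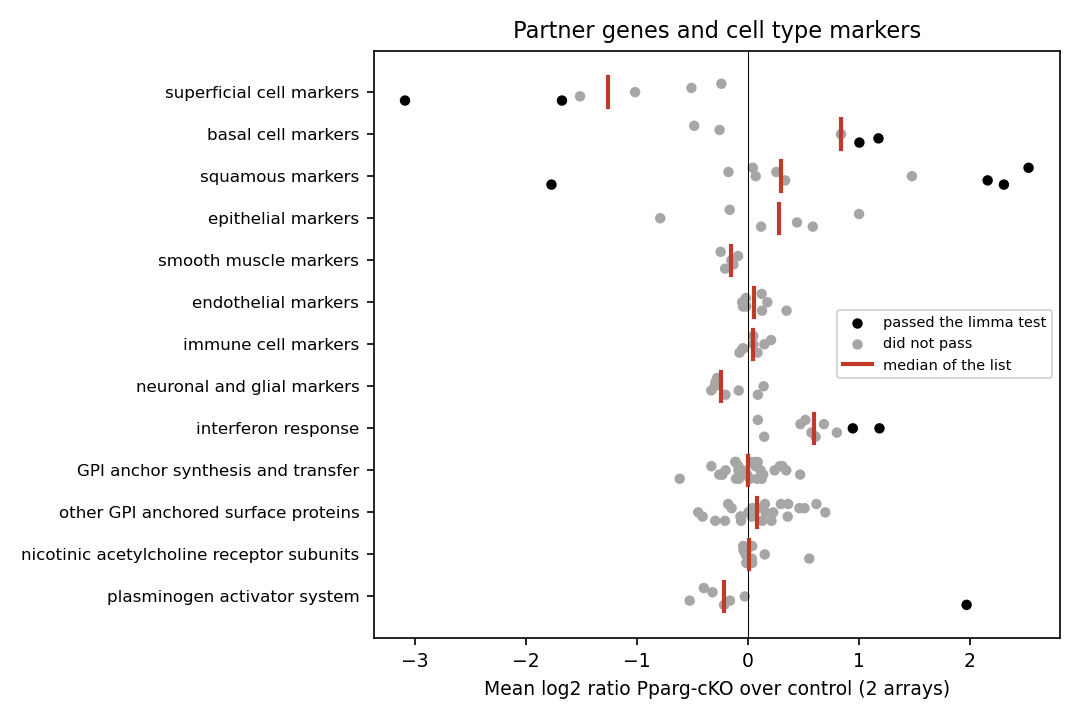
Mean log2 ratio of Pparg-cKO over control over 2 arrays (horizontal) for the tested genes of 13 lists of partner genes and cell type markers, 1 point a gene. Black points passed the limma test, and red bars are the median of each list. The S cell markers lie below 0 with a median of -1.26, the genes of GPI anchor synthesis lie around 0, and Agr2 stands apart at 1.97 in the plasminogen list.

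The genes whose ratios on both arrays were nearest to those of the 4 members are named next as a description, by distance in the plane of 2 log2 ratios among bright genes. For Ly6d these were Krt20, a keratin of S cells, at a distance of 0.12, Hsd17b2, a steroid dehydrogenase, at 0.20, and 3830417A13Rik at 0.22. For Psca they were Serpinb6b, Ermp1 and Mgst2, all within 0.13. For Ly6k they were Myh6, Fa2h and Ncf1, all within 0.23. For Slurp1 they were Upk3bl at 0.03, Lrrc26 at 0.05 and Pde8b at 0.11. On scanner-processed signals, an alternative chosen after seeing the data, these distances from Slurp1 were 0.95, 0.64 and 0.70, so that this nearness depended on how low signals were treated. The other 9 pairs stayed within 0.34. With 2 values a gene, such nearness describes size and direction only.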

How the data were processed

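Total RNA was amplified in a single T7 round, labeled with AlexaFluor555 (green) or AlexaFluor647 (red) and hybridized at a core facility, with dyes exchanged between the arrays. Per the file headers, the scanner files (Agilent Feature Extraction 10.7.3.1, per the submitters' processing notes) held spot intensity on a linear scale: mean signal, median background, and a processed signal corrected for background and dye. Per the file headers, the log10 of the red over green ratio was also given and was used to check the processed signals. The deposited value table held signed fold changes per probe, that is, ratios with a minus sign for a fall. The median of each column was 1 and 28.3% and 28.4% of its values were exactly 1.

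Mean signals were corrected with normexp (offset 50) and each array was normalized by loess with limma 3.58.1 (R 4.3.3), control spots having no weight. Outlier spots were dropped and the 4 spots of a probe averaged, 1 probe of 39429 having none left on an array. A gene was represented by its brightest probe, and other probes of members are given. Signals printed are processed signals; log2 ratios are the loess values, so the pair of signals need not give the printed ratio. Tests used limma's lmFit and eBayes on the mean of 2 ratios, two-sided, and p-values were adjusted after Benjamini and Hochberg over the 22499 genes that stood well above background on each array in 1 channel or both, with 1 residual degree of freedom a gene. The fit was run on simulated data drawn from the variance model that it assumes, so that run cannot check the model. The number of arrays limits the precision, since each genotype and sex was measured as 1 pool.

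The members and lists were chosen with earlier results of these data known. Named genes were the members, list genes that passed the limma test or the fold rule (otherwise at most the 3 with the largest ratios) and the 3 nearest in pattern to Ly6d, Ly6k, Psca and Slurp1; others, such as Plaur, Upk3a and Trp63, were chosen after their values were seen. All 10 members had an accession that RefSeq (GRCm38.p6) lists under the same symbol, and 7 older array names were updated through its synonyms and accessions. Positions are those of the design (mm9). Probe sequences are those of the scanner files; both strands were searched. Protein sequences and exon positions were not analyzed here.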

Additional observations from a re-analysis of the deposited data

Results flagged for a closer look

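Among 169 members and list genes tested, 5 lay on opposite sides of 0 on the female and the male array by at least 1.2-fold each, and 0 of them were members. No test was made of these differences, as there was 1 array per sex, each with its own dye orientation. Lypd10, a family gene with dim probes, had a log2 ratio of -1.16 in females and 0.55 in males, a difference of male minus female of 1.71. Its second probe gave -0.62 and 0.16. Krt5, a keratin of B cells, had -0.86 and 0.35, a difference of 1.20. The other Krt5 probe gave -0.74 and 0.03, short of 1.2-fold in males. Bst2, an interferon response gene whose product is anchored by GPI, had -0.36 and 0.66, a difference of 1.02. Krt8, a keratin of simple epithelia, had -0.28 and 0.52, a difference of 0.80. The other Krt8 probe gave -0.25 and 0.29, short of 1.2-fold in females. Cntn1, a GPI-anchored protein of neurons, had 0.63 and -0.56, a difference of -1.20.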

How the results depend on the processing

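The log2 ratio of each member kept its sign under the alternatives run. Among all genes past the fold rule, 43.0% were higher, 53.0% with median centering and 77.0% on the male array alone. The number of members past the fold rule was 3 with median centering and with a signal threshold of 200, 2 at a fold threshold of 2, and 5 with either array left out (range 5 to 5), against 4. The genes past the fold rule numbered 258, 112 at a fold threshold of 2, and 444 to 1253 with an array left out, the larger number resting on the male array. The median log2 ratio of the members was 0.17 to 0.26 with an array left out, against 0.27. Genes called in limma numbered 169, 571 without the offset, 94 without the filter on dim probes and 0 with the deposited table, which gave 2101 at an unadjusted p under 0.05. Other family genes called numbered 2 with scanner-processed signals, without the offset and with the median over all probes, where Lypd8 joined Lypd2, and 0 with the deposited table. Of the genes in the 13 lists, 11 were called, 25 without the offset and 0 with the deposited table. The causes of these shifts were not tested.

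The ratio of Slurp1 moved by more than its SD in 4 alternatives (1.84 with median centering to 2.46 with the deposited table), and that of Ly6c1 was 0.10 as the median over its probes. The other members moved by less than their SD in the 5 alternatives that kept both arrays. The slide could not enter as a block, since both arrays shared it, and limma was not run on a single array, which has no residual spread. Each array sets the 2 pools of a sex against each other, so the ratios tested were already paired within arrays.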
